A study of Sus scrofa with 8 samples.

Results

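Among 178498 regions of open chromatin merged from 8 ATAC-seq libraries of pig muscle satellite cells, 403 were called as peaks in all 4 WT libraries and in none of the 4 CBP libraries. They are named WT-only regions here. They made up 0.226% of the merged regions, and the mirror-image rule (called in every CBP and no WT library) found 357, or 0.2%. The WT-only regions were chosen by the peak calls themselves, so every contrast between CBP and WT at these places describes that choice and was not tested.

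ATAC-seq uses a transposase that cuts and tags DNA where chromatin is accessible, and pile-ups of the tagged fragments mark promoters, enhancers and other open sites. Satellite cells are the stem cells of skeletal muscle: they proliferate as myoblasts and, on differentiation, leave the cell cycle, fuse and build sarcomeres under the bHLH factors of the MyoD family. CBP (CREBBP) is a histone acetyltransferase with a bromodomain, and it serves as a coactivator for many enhancer-bound factors, MyoD among them.

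The 4 groups were CBP at 60 h, CBP at 0 h, WT at 60 h and WT at 0 h, with 2 libraries each. The labels set 0 h at proliferation and 60 h at differentiation. They describe exposure to the CBP/p300 bromodomain inhibitor SGC-CBP30 (5 uM/ml as written, during 48 h of proliferation or 60 h of differentiation). That text stands on the WT libraries too, so what separates the CBP from the WT cells is known only from the group names and the series title, which speaks of CBP inhibiting differentiation. The labels give the cell line as C3H and the growth medium of that line, although the organism is pig, and they do not say whether replicates came from separate animals or cultures.

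Marker genes of the labelled cell type had peaks at their ends, and so did part of the fibroblast, endothelial and immune markers. Of 14 genes that mark satellite cells and myoblasts, 12 to 14 had a peak within 1 kb of a gene end in each library, and PAX7, PAX3, MYF5, MYOD1 and MYOG had one in every library. Of the fibroblast markers 4 to 5 of 6 had such a peak in each library (THY1, LUM, COL1A1 and TCF21 in every library, PDGFRA in none). Of the endothelial markers it was 2 to 4 of 5 (PECAM1 and KDR in every library, CDH5 in none), and of the immune markers 3 to 4 of 5 (CD68, CD3E and SPI1 in every library, CSF1R in none). No library had one at the 3 neural and Schwann cell markers matched. Peaks at gene ends thus did not single out the labelled type, and the part of other cells in the results was not tested. The peak lists held 88871 and 87977 peaks in CBP at 60 h, 135528 and 121757 in CBP at 0 h, 86282 and 82696 in WT at 60 h, and 127394 and 134181 in WT at 0 h. Depth, read from the background level in each list and set to 1.0 in the shallowest library, was 1.21 and 1.08, 1.98 and 1.43, 1.11 and 1.0, and 1.69 and 2.09 in the same order of groups. Peak height is given below as the fragment pile-up at the strongest summit divided by the library's own background floor. The 0 h libraries, all deeper than the 60 h libraries, could call lower peaks. The lowest height callable at floor background was 3.42 and 3.83 in CBP at 60 h and 2.86 and 3.25 in CBP at 0 h. In WT it was 3.72 and 3.61 at 60 h and 3.05 and 2.72 at 0 h. Among the 60 h libraries this limit did not follow depth, since the shallowest, WT replicate 2, did not have the highest.

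Of the 62095 regions called in every WT library, 50575 (81.4%) were also called in every CBP library, and the 403 called in no CBP library were 0.649%. Another 812 (1.31%) had a call in 1 CBP library, 4490 (7.23%) in 2 and 5815 (9.36%) in 3. The 812 fell unevenly over the CBP libraries: 93 and 127 were called in the 60 h libraries, against 446 and 146 in the 0 h libraries, with the largest number in the deepest CBP library. A further 1071 regions had no CBP call and 3 WT calls, and the missing WT library was a 60 h library in 319 and 507 of them and a 0 h library in 138 and 107. Leaving out a library relaxes both rules, so either count can then only rise, by the regions that this library alone had kept out. The count of WT-only regions was 849 without CBP 0 h replicate 1, 722 without WT 60 h replicate 1 and 910 without WT 60 h replicate 2. It was 659 when every list was cut to its 82696 strongest peaks. The mirror-image count lay between 404 and 769 when single libraries were left out, with values over 1.5 times 357 without CBP 60 h replicate 1 (668), CBP 60 h replicate 2 (734), CBP 0 h replicate 2 (768), WT 0 h replicate 1 (613) and WT 0 h replicate 2 (769).

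**Figure D1:**
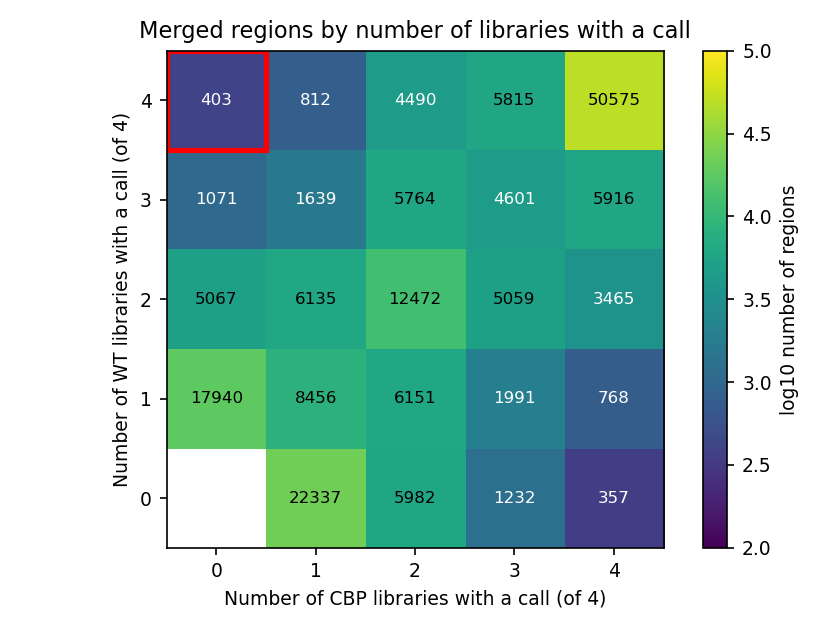
Number of merged regions by how many of the 4 CBP libraries (x axis) and of the 4 WT libraries (y axis) had a call; colour is the log10 number of regions and the red frame marks the 403 WT-only regions. They stand opposite the 357 regions called in every CBP and no WT library, and both corners are far below the 50575 regions called in all 8 libraries.

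Of the 12 WT-only regions with the strongest calls, 8 lay inside genes, among them TMEM182, KCNMA1, LPAR1, AKT2 and WWP2, and 4 lay between genes. Regions were ranked by the lowest −log10 q over the 4 WT libraries. This is the significance of each peak over its local background, and its order is not that of the fold. All coordinates are of the pig build Sscrofa11.1. The first, chr3:51448096-51449359, lies inside TMEM182, a muscle-enriched membrane protein described in chicken and mouse as restraining myoblast fusion. It had heights of 23.7 and 21.7 in WT at 60 h, against 13.4 and 10.9 in WT at 0 h, and a lowest −log10 q of 17.0. Both differentiation libraries stood above both proliferation libraries. Of the other 18 regions in or near TMEM182, 9 and 9 were called in CBP at 60 h, 15 and 9 in CBP at 0 h, 9 and 8 in WT at 60 h, and 10 and 11 in WT at 0 h.

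The second, chr14:79845880-79847039, lies inside KCNMA1, the pore subunit of the large-conductance calcium-activated potassium channel. Its heights were 13.0 and 15.5 in WT at 60 h, against 8.85 and 7.42 in WT at 0 h. The third, chr4:124413-125256, lies inside the zinc-finger gene ZNF34 and had nearly equal heights of 12.6 and 13.9 in WT at 60 h and of 14.3 and 14.6 in WT at 0 h. The fourth, chr1:251883212-251883991, lies inside LPAR1, a receptor for lysophosphatidic acid. It reached 10.7 and 9.29 in WT at 60 h, against 7.63 and 7.91 in WT at 0 h, on a local background at the floor in all 4 libraries. Like the TMEM182 region, the KCNMA1 and LPAR1 regions were taller in both 60 h libraries than in both 0 h libraries, and the ZNF34 region was lower in both.

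A kinase and enzymes of the ubiquitin pathway were also among the 12 strongest. The AKT2 region at chr6:48612217-48612908 lies inside the gene for a kinase of the insulin pathway. Its heights were 11.6 and 17.0 in WT at 60 h and 15.9 and 13.8 in WT at 0 h, so the times overlapped. WWP2 encodes a HECT-type ubiquitin ligase, and the region inside it at chr6:17133034-17134153 had 8.85 and 10.8 in WT at 60 h, against 7.63 and 5.94 in WT at 0 h. The region at chr18:18793336-18794213, 25399 bp from the ubiquitin-conjugating enzyme gene UBE2H, had 11.2 and 12.4 in WT at 60 h, against 8.24 and 9.64 in WT at 0 h. Both of these were taller in each 60 h library than in each 0 h library.

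The transcriptional corepressor gene RUNX1T1 had a region 45367 bp from its nearest end, at chr4:44554138-44554925. Its heights hardly varied, with 9.31 and 9.29 in WT at 60 h and 9.16 and 8.16 in WT at 0 h, and its local background was within 1.02 times the floor in every WT library. A region inside MCC at chr2:116692068-116692856, whose nearest gene end belongs to the mRNA-decapping enzyme gene DCP2, had 14.9 and 10.8 in WT at 60 h and 12.5 and 7.91 in WT at 0 h. The region at chr5:17431746-17431979, 5976 bp from the autophagy gene ATG101, is among the narrowest at 234 bp. It had 19.6 and 17.5 in WT at 60 h, against 16.5 and 12.9 in WT at 0 h, over a local background of 3.84 to 4.63 times the floor. The 12 strongest were completed by chr13:153090649-153091334, 227374 bp from LOC100519871, with 11.2 and 13.4 in WT at 60 h against 8.85 and 8.66 in WT at 0 h, and by chr9:70674028-70674369 inside LOC110262229. The LOC110262229 region had 20 and 21.7 in WT at 60 h, against 22.3 and 23.2 in WT at 0 h, over a local background of 5.82 to 6.95 times the floor.

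**Figure D2:**
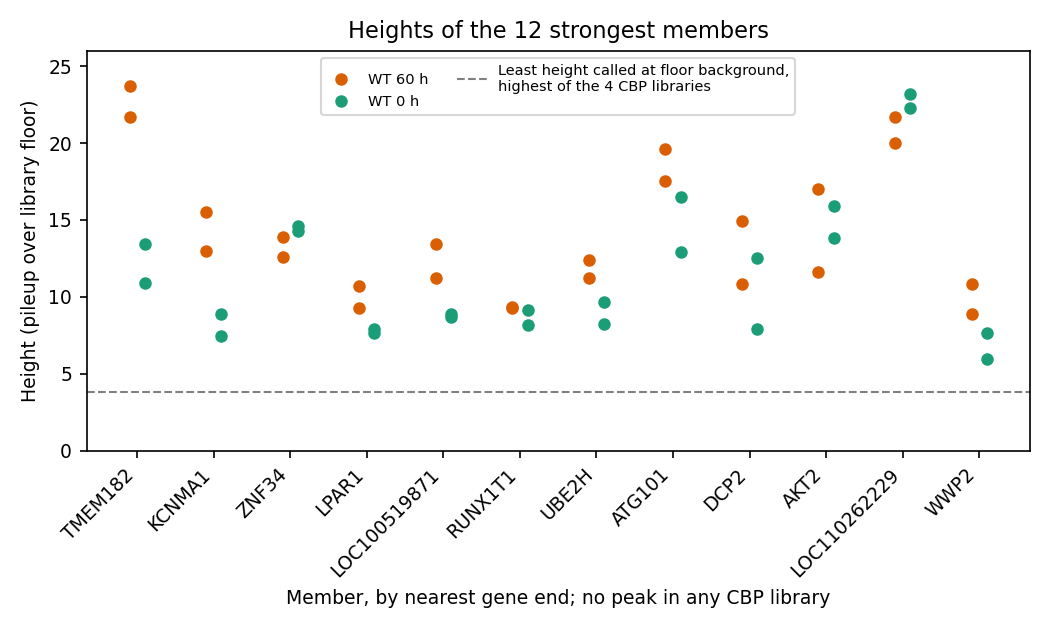
Height (pile-up over library floor) of the 12 WT-only regions with the strongest calls, named by the nearest gene end, in the WT 60 h libraries (orange) and the WT 0 h libraries (green); each point is 1 library. The dashed line at 3.83 is the highest of the 4 CBP libraries' lowest heights callable at floor background, and every point lies above it. Where the local background is above the floor, as at ATG101 and LOC110262229, a taller peak than the line shows is needed for a call.

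Few WT-only regions sat at gene ends, where promoters lie: 22 of 403, or 5.46% (95% Wilson interval 3.63 to 8.13%), were within 1 kb of either end of a protein-coding gene. The strongest, chr5:10131653-10131963, lies inside TRIOBP, which encodes an actin-bundling protein, 705 bp from its end. It had 18.6 and 14.4 in WT at 60 h and 14.0 and 14.6 in WT at 0 h. The next, chr2:61476429-61476988, overlaps an end of TPM4, a tropomyosin of the non-sarcomeric actin cytoskeleton, with 12.6 and 12.9 in WT at 60 h against 11.6 and 10.4 in WT at 0 h. Both of these genes of the actin cytoskeleton lay on a local background of 2.93 to 4.68 times the floor.

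CHRNA1 encodes the alpha subunit of the muscle acetylcholine receptor, which gathers at the neuromuscular junction. The region 509 bp from its end, chr15:80671478-80672563, had 8.85 and 9.29 in WT at 60 h, against 6.72 and 6.68 in WT at 0 h. PINK1, a kinase that marks damaged mitochondria for removal, had a region at chr6:78883070-78883767 with 8.38 and 9.29 in WT at 60 h, against 7.02 and 6.68 in WT at 0 h. The region 741 bp from the pro-apoptotic gene BID, chr5:69875388-69875754, had 15.8 and 16.0 in WT at 60 h, against 12.5 and 12.6 in WT at 0 h. All 3 were taller in both 60 h libraries than in both 0 h libraries, as were 42.9% of all WT-only regions. The tetraspanin gene TSPAN18 had a region 672 bp from its end and inside the neighbouring gene TP53I11, chr2:17464321-17464952, with 15.8 and 12.9 in WT at 60 h against 10.7 and 9.15 in WT at 0 h. The other gene-end regions among the 10 strongest were next to C2H19orf35, CCDC63, the Golgi protein gene GOLPH3L and the splicing factor gene AAR2, with heights of 6.19 to 17.2. Of these 10, the times overlapped at TRIOBP, CCDC63, GOLPH3L and AAR2, and the rest were taller in both 60 h libraries.

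WT-only regions were linked to single members of several muscle gene groups, in numbers too small to read as more or less than elsewhere. Each region was linked to the gene with the nearest end where that end was within 50 kb, which tied 266 WT-only regions to 262 genes. Over all 114950 linked regions, WT-only regions made up 0.231%. For 17 gene lists covering muscle, cell cycle, chromatin, matrix and control functions, 338 of 355 genes were found in the gene table and 334 had a linked region. Of the 3494 regions linked to them, 10 (0.286%) were WT-only, near the share over all linked regions. None of these 10 was at MYOD1, MYOG, MYF5, PAX7 or PAX3.

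Among the myogenic regulators, 2 of 252 linked regions were WT-only. One lies inside TCF12, which encodes an E-protein that pairs with MyoD on DNA. It spans chr1:114689572-114689862 and had 12.1 and 11.4 in WT at 60 h and 11.3 and 9.4 in WT at 0 h. The other is 20969 bp from ID2, an inhibitor that keeps E-proteins from pairing with MyoD, at chr3:127524176-127524624. It was a low peak, with 5.12 and 5.68 in WT at 60 h against 4.88 and 3.46 in WT at 0 h. With links within 10 kb, only the TCF12 region of these 2 stayed linked.

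Of 339 regions linked to satellite cell and Notch genes, 1 was WT-only: chr9:73362834-73363495 inside CALCR, the calcitonin receptor, which in mouse holds satellite cells in quiescence. Its heights were 9.78 and 6.71 in WT at 60 h and 8.55 and 4.7 in WT at 0 h, with overlap between the times. Of 337 regions linked to fusion and adhesion genes, 1 was WT-only, inside DOCK1, an activator of Rac needed for myoblast fusion in fly and mouse. The DOCK1 region, chr14:136713371-136714408, had 9.31 and 7.22 in WT at 60 h and 9.77 and 6.92 in WT at 0 h. Of 307 regions linked to sarcomere genes, 1 was WT-only, inside ACTN2, the alpha-actinin of the Z-disc. At chr14:54726862-54727697 the ACTN2 region had 8.38 and 6.19 in WT at 60 h, against 9.77 and 9.15 in WT at 0 h, so this sarcomere gene's region was lower in both differentiation libraries.

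Cell cycle genes had 1 WT-only region of 158, inside RBL1 (p107, a pocket protein that holds E2F factors). The RBL1 region, chr17:40239484-40240058, had 6.98 and 6.71 in WT at 60 h, against 4.27 and 3.96 in WT at 0 h. Acetyltransferase and bromodomain genes had 1 of 271, inside BRD8, a bromodomain subunit of the TIP60 acetyltransferase complex. Its region at chr2:140183524-140184235 lies 1329 bp from the gene's end and had 6.05 and 7.74 in WT at 60 h and 6.72 and 6.68 in WT at 0 h. Neither CREBBP nor EP300 had a linked WT-only region.

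Fibroblast and matrix genes had 3 of 413: the transcription factor gene TWIST2 (chr15:138252793-138253337, inside the gene), the matricellular protein gene POSTN (chr11:13200876-13201524) and the proteoglycan gene LUM (chr5:91735204-91735603). By the median over the 4 WT libraries, TWIST2 (7.17) was near the WT-only median of 7.07. POSTN (5.4) and LUM (5.25) were below it. TWIST2 had 7.92 and 5.68 in WT at 60 h and 7.94 and 6.43 in WT at 0 h, and POSTN had 4.66 and 6.19 in WT at 60 h and 6.11 and 4.7 in WT at 0 h. LUM had 6.05 and 8.77 in WT at 60 h, against 3.66 and 4.45 in WT at 0 h, and was taller in both 60 h libraries.

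No WT-only region was linked to the AP-1 and immediate early genes (185 regions), the CREB partners (193), the TGF-beta and BMP genes (295), the inflammatory genes (196), the adipogenic genes (177) or the mitochondrial genes (109, from 15 of 19 listed genes found). The same was true of the housekeeping (71), endothelial (126), immune (65) and neural (47) lists. These zeros depend on what counts as a link. Where a region inside a gene or within 50 kb of either of its ends counted, an alternative added after the data were seen, 18 of 7082 listed-gene regions (0.254%) were WT-only, beside 0.231% of the 143945 regions that lie so near any gene. The mitochondrial, inflammatory and housekeeping lists were then no longer at 0. They gained regions inside MCU, the pore of the mitochondrial calcium uniporter, and inside its inhibitory paralogue MCUB. The regions gained near the cytokine gene IL1A and the ribosomal protein gene RPLP0 lie inside other genes, CKAP2L and GCN1. The cell cycle list gained a region near CCNE2, with its nearest gene end at TP53INP1, and regions near E2F4, inside C6H16orf70 and LRRC29. The acetyltransferase list gained 1 near KAT6A, inside ANK1. The MCUB region at chr8:112594169-112595242 was the reverse of the TMEM182 pattern, with 8.38 and 6.71 in WT at 60 h against 21.4 and 14.3 in WT at 0 h.

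Some genes and stretches held more than 1 WT-only region. Of the 262 linked genes, 4 had 2 linked WT-only regions (AKT2, BCL9, C13H3orf70 and MFHAS1) and none had 3. The second AKT2 region, chr6:48562663-48563337, was lower than the first, with 9.31 and 10.8 in WT at 60 h against 8.55 and 8.41 in WT at 0 h. The other 14 regions in or near AKT2 had 5 and 3 calls in CBP at 60 h, 9 and 9 in CBP at 0 h, 4 and 5 in WT at 60 h and 10 and 10 in WT at 0 h. BCL9, a coactivator of beta-catenin in Wnt signalling, had its pair at 10767 and 38832 bp from its ends, with heights of 4.2 to 10.7.

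Of the 403 regions, 226 (56.1%) overlapped a gene's span. Counted this way, 9 genes held 2, a set chosen after its values were seen: AKT2, FOXP1, NAV2, SASH1, SRGAP1, UVRAG, WWP2, ZCCHC7 and ZNF827. FOXP1, NAV2 and SASH1 are long genes with 77, 122 and 54 merged regions inside them. SRGAP1, ZNF827, UVRAG, AKT2 and WWP2 hold 38, 31, 19, 16 and 16. In ZCCHC7, with the fewest, 2 of 11 regions inside the gene were WT-only. Its pair, chr1:237897510-237898092 and chr1:237978913-237979620, had 7.92 and 7.74, and 6.98 and 6.71, in WT at 60 h, against 5.19 and 4.95 for each region in WT at 0 h. On the chromosomes, 4 pairs of neighbouring WT-only regions were under 20 kb apart. They were the WWP2 pair (17827 bp), a pair near C8H4orf33 (19163 bp), a pair near SLC25A11 and GP1BA (11478 bp) and the C13H3orf70 pair (119 bp). By chromosome, WT-only regions numbered from 3.7 per 1000 regions called in every WT library on chromosome 9 to 10.7 on chromosome 8.

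Most WT-only regions were small peaks. Their median height was 7.92 and 7.74 in WT at 60 h, against 7.02 and 6.43 in WT at 0 h. These medians rested on summit pile-ups of 17 and 15 fragments in WT at 60 h (95% Poisson intervals 9.9 to 27.2 and 8.4 to 24.7) and of 23 and 26 in WT at 0 h (14.6 to 34.5 and 17 to 38.1). Regions called in all 8 libraries were taller, at 16.3 and 15.5 in WT at 60 h and 18.3 and 16.6 in WT at 0 h. Within each WT peak list the median WT-only region stood between percentiles 29.6 and 33.1 of all peaks by −log10 q. The summed width of a library's peaks in a WT-only region had a median of 360 to 454 bp in the WT libraries. The CBP-only mirror set was of similar size in its own libraries, with median heights of 6.41 and 7.17 in CBP at 60 h and of 5.72 and 5.78 in CBP at 0 h.

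Taken by the median over the 4 WT libraries, heights ran from 4.16 to 29.8 with a median of 7.07, and 320 of 403 were under 10. The highest of the lowest heights that a CBP library could call at floor background was 3.83. The WT height was above it in every WT library at 376 WT-only regions and at least 2 times it at 92. At 108 (26.8%) the local background in WT was over 2 times the floor, and there a taller peak than 3.83 is needed for a call. A missing CBP call does not distinguish a lost site from one below the limit of detection, and it does not show closed chromatin.

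Tall sites were rarely without a CBP call. Among regions called in every WT library, the share with no CBP call was 8.97% (27 of 301) where the median WT height was under 5, 2.98% (86 of 2885) at 6 to 7, 0.662% (53 of 8009) at 8 to 10 and 0.169% (17 of 10070) at 15 to 20. At 20 or more it was 0.0152%, or 3 of 19689. Local background differed too. It had a median of 1.18 times the floor in WT-only regions under a height of 15, and 5.39 times (2.55 to 11.7) in the 20 that reached 15. Regions called in every library had a median of 2.3. In those 20 tall regions the call compares the summit with a raised local level, and the part that this plays in the absent CBP calls was not tested.

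**Figure D3:**
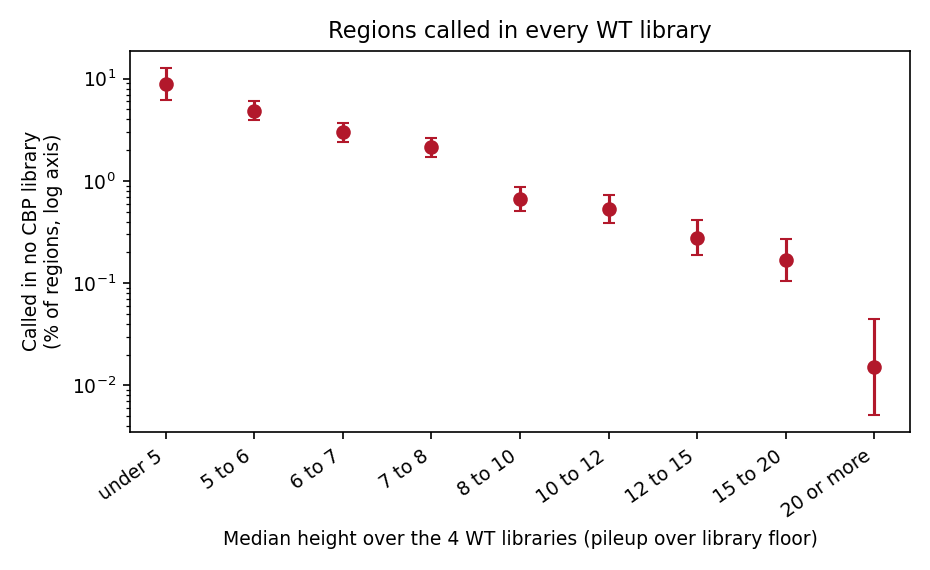
Share of regions called in every WT library that had a call in no CBP library (y axis, percent, log scale), by median height over the 4 WT libraries (x axis, pile-up over library floor). Points are shares and bars are 95% Wilson intervals, which cover counting error only; the share was 8.97% under a height of 5 and 0.0152% at 20 or more.

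At the edge of the rule, the weakest WT-only regions had calls near the lowest in their lists. The 5 weakest by lowest −log10 q were near or inside MSN (1.83), TTC9 (1.8), GEM (1.76), N4BP2 (1.34) and TMCC1 (1.34), and 17 regions were under 2. The TMCC1 region had heights of 4.66 and 3.61 in WT at 60 h and of 5.5 and 4.2 in WT at 0 h. The median lowest −log10 q was 4.03, and 126 regions (31.3%) reached 5 in every WT library.

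Just outside, the strongest region with 4 WT calls and 1 CBP call was chr14:85531163-85532350, 11774 bp from CCSER2. Its height was 8.12 in CBP 60 h replicate 1, the single CBP library with a call, against 19.1 and 13.9 in WT at 60 h and 14.3 and 9.64 in WT at 0 h. A region inside BMPR1A, a type I receptor for BMPs, at chr14:87835323-87836327 likewise had 4.7 in CBP 60 h replicate 1, against 10.2 and 10.8 in WT at 60 h and 11.3 and 9.15 in WT at 0 h. At both loci the lone CBP peak was lower than every WT peak. The loci were picked for strong WT calls and a single CBP call, so this describes the choice and was not tested. The others of the 5 strongest were near LOC110255652 and inside VPS26B and RRN3, with CBP heights of 5.2, 7.59 and 6.14. The lone CBP calls of these 5 had −log10 q values of 3.2 to 7.22. Over the 812 such regions the lone CBP call had a median −log10 q of 5.16, and 8 were under 2.

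Of regions with 3 WT calls and no CBP call, the strongest was a 214 bp site inside SIN3A, the scaffold of a histone deacetylase complex, at chr7:58175038-58175251. It had 48.4 in the single WT 60 h library with a call, against 42.4 and 36.6 in WT at 0 h, over a local background of 15.7 to 18.9 times the floor. Sites in ARL6IP5 and RUNDC1 and near UCK2 missed the call in WT 60 h replicate 2 also, and a site inside MAGI2 missed it in WT 60 h replicate 1. None of these 5 missed a WT 0 h call.

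Inside genes lay 213 WT-only regions (52.9%) and between genes 168 (41.7%), beside the 5.46% at gene ends. Over all merged regions the shares were 47.5% inside genes, 41.8% between genes and 10.7% at gene ends. WT-only regions thus had a lower share at gene ends, a higher share inside genes and nearly the same share between genes. The CBP-only mirror set had 3.08% at gene ends, 44.0% inside and 52.9% between genes, and the 812 regions with 1 CBP call had 5.42%, 53.0% and 41.6%. Regions called in every library had 24.8% at gene ends, 39.8% inside and 35.4% between genes. Median length was 595 bp in WT-only regions (234 to 1827 bp), 616 bp in the mirror set, 1245 bp in regions called in every library and 643 bp over all regions. Regions are not replicates and all libraries share them, so these shares are descriptions. The median WT-only region was 26072 bp from the nearest gene end, and 13 were over 500 kb away. The genes linked to both sets numbered 5 (KLF12, SEMA6A, SLC39A4, TWIST2 and ZNF638), which is 1.91% of the genes of the WT-only set and 3.11% of those of the mirror set. Of all 17474 genes with a linked region, 1.5% had a WT-only region and 0.921% one of the mirror set.

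**Figure D4:**
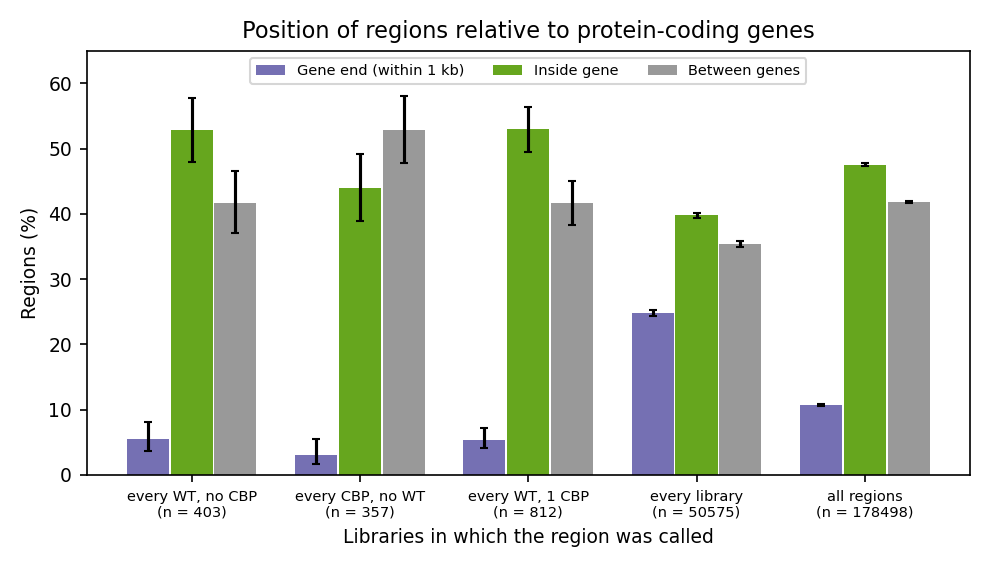
Percent of regions at a gene end (within 1 kb), inside a gene and between genes, by the libraries in which the region was called; bars start at 0 and error bars are 95% Wilson intervals, which cover counting error only. WT-only regions (every WT, no CBP) had 5.46% at gene ends, against 24.8% of regions called in every library and 10.7% of all merged regions.

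Regions around the WT-only regions were called in CBP libraries about as often as regions elsewhere. The nearest region with a CBP call was at a median of 3070 bp, with 93 (23.1%) within 1 kb and 22 farther than 20 kb, and 208 (51.6%) lay within 10 kb of a region called in every library. In the mirror set 12.9% lay within 1 kb of a region with a WT call. Within 10 kb of a region called in every library lay 33.3% of the mirror set and 47.9% of the 812 regions with 1 CBP call. Of 933 other regions within 10 kb of a WT-only region, 46.3% and 47.2% were called in CBP at 60 h, 72.9% and 64.1% in CBP at 0 h, 50.9% and 47.6% in WT at 60 h and 71.1% and 73.7% in WT at 0 h. Over the 177738 regions outside both the WT-only and the mirror set, the shares were 47.0% and 46.0% in CBP at 60 h, 73.1% and 63.5% in CBP at 0 h, 45.1% and 43.1% in WT at 60 h and 67.4% and 71.4% in WT at 0 h. Beside WT-only regions the CBP shares were above those elsewhere in 2 libraries and below them in 2, and the WT shares were above them in all 4. Of 361 neighbours called in every WT library, 290 (80.3%) were called in every CBP library, near the 81.4% over all such regions.

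The rule asked for a WT call at both times, with a higher lowest callable height at 60 h than at 0 h, so WT heights at the 2 times are given as a description. WT-only regions averaged a median height of 7.83 ± 0.124 in WT at 60 h and 6.73 ± 0.419 in WT at 0 h (SD, n = 2 each), a difference of 1.1. Both 60 h libraries were above both 0 h libraries. Nothing is drawn from a test of this difference, and 2 libraries against 2 could not give a two-sided exact permutation p below 0.333. The 812 regions with 1 CBP call had 7.7 ± 0.306 in WT at 60 h and 7.2 ± 0.393 in WT at 0 h, and regions called in all 8 libraries had 15.9 ± 0.576 in WT at 60 h and 17.4 ± 1.24 in WT at 0 h. In the fold that the authors' peak caller gives, the WT-only regions had 4.11 ± 0.0336 in WT at 60 h and 3.87 ± 0.148 in WT at 0 h.

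Region by region, both WT 60 h libraries were above both WT 0 h libraries at 173 WT-only regions (42.9%) and below them at 53 (13.2%). Over all regions called in every WT library the shares were 25.8% above and 34.6% below. In the mirror set, both CBP 60 h libraries were above both CBP 0 h libraries at 150 regions (42.0%) and below at 42 (11.8%), against 15.7% and 47.5% of regions called in every CBP library. The 60 h libraries were the shallower ones under both labels, so the rule set a higher minimum height at 60 h than at 0 h, and also asked for no call in the deeper 0 h libraries of the other label. The part of these cut-offs in the shares was not tested.

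The direction over the wider sets turned with the scale of height. With each height divided by its library's median over regions called in all 8 libraries, a scale added after the data were seen, both WT 60 h libraries were above both WT 0 h libraries at 55.8% of WT-only regions and below at 7.69%. On this scale the shares over regions called in every WT library were 38.6% above and 25.1% below. Both CBP 60 h libraries were then above both CBP 0 h libraries at 78.7% of the mirror set and below at 1.68%, against 45.9% and 22.3% of regions called in every CBP library. On both scales the share above was larger than the share below at the WT-only regions, and it was larger than the same share over regions called in every WT library. The same held for the mirror set in the CBP libraries. Both sets were chosen by the cut-offs named above whichever scale is used, and the part of these cut-offs was not tested.

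**Figure D5:**
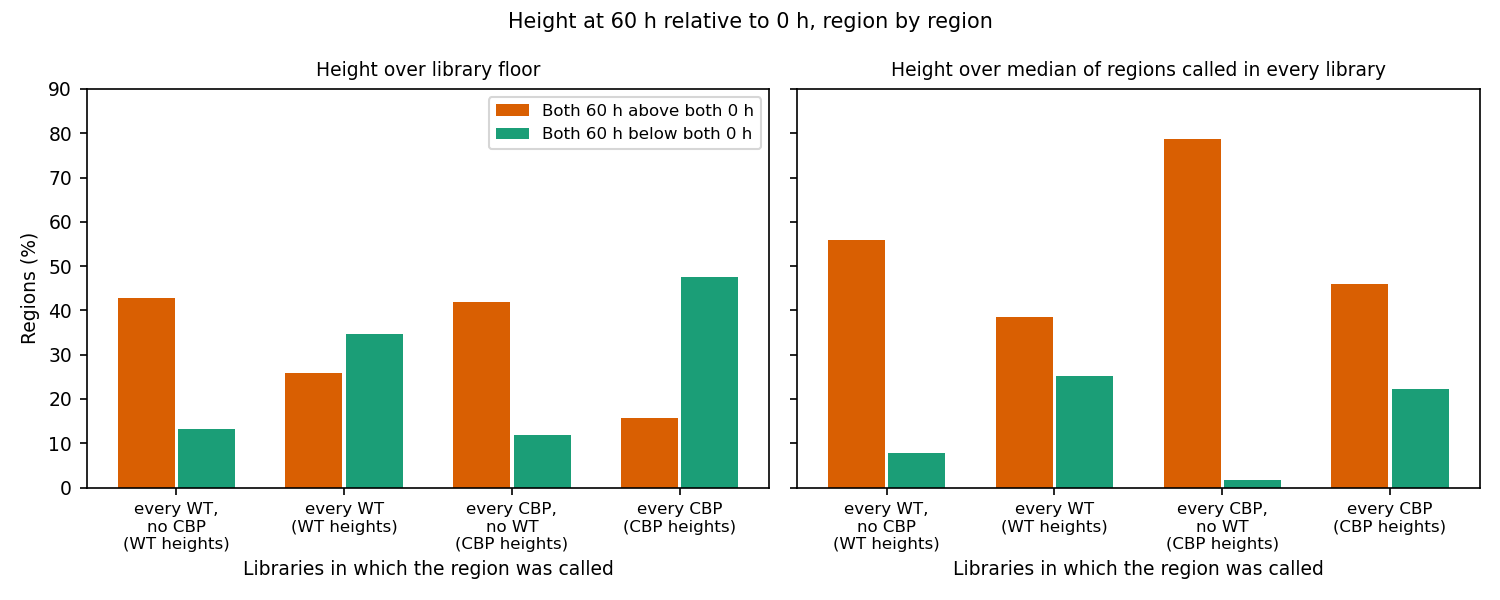
Percent of regions whose height was above both 0 h libraries in both 60 h libraries (orange) or below both 0 h libraries in both 60 h libraries (green), with WT heights for regions called in WT and CBP heights for regions called in CBP; bars start at 0. With height over the library floor (left), WT-only regions were 42.9% above and 13.2% below, and regions called in every WT library 25.8% and 34.6%. With height over the median of regions called in every library (right), they were 55.8% and 7.69%, and 38.6% and 25.1%, so the wider set turns with the scale.

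Membership was fragile for most regions and firm for few. Under 4 other settings (−log10 q of at least 5, peaks covering at least 50% of the region, equal numbers of peaks per library, and merging of peaks up to 100 bp apart), 40 of the 403 (9.93%) met the rule each time. These 40 included all of the 12 strongest regions named above. Those 12 were ranked by −log10 q, so they met the stricter q by construction. Cutting lists to their strongest peaks also favours such regions, so this is not separate support for them. By position, 26 of the 40 lie inside genes, 12 between genes and 2 at gene ends. Of the 10 regions at listed genes, the one inside TCF12 was among the 40.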

How the data were processed

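The deposited files are 8 narrow-peak lists, 1 per library. The submitters' processing notes name Trimmomatic, MACS2 2.1.0 and the build Sscrofa11.1. Not given in the sources used here are the aligner, the read filters, how duplicates were handled, any shift for the transposase, and the read totals. The authors' peak caller gave each peak a score, a fold over local background (a ratio) and −log10 p and −log10 q values, all deposited with the lists; the summit offset in the deposited last column was also read. Lists were called per library.

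From the fold and the −log10 p the summit pile-up and local background were solved for (the fold taken with 1 added to both, Poisson upper tail, tolerance 0.01). The commonest local background in a list is its floor; height is pile-up over floor. Merging joined peaks of any library that shared 1 bp, on chromosomes 1 to 18 and X. Genes were 19484 protein-coding genes of a RefSeq table of Sscrofa11.1 without strand, so a gene end is either end. The scripts recovered planted regions and pile-ups in simulated data. Intervals cover counting error only, and SDs the spread between libraries, which may be technical. An exact permutation test of WT heights at 60 h against 0 h was planned; it is not used, since the lowest callable height differs between these times.

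The regions, gene lists and rules were chosen with earlier results of these data known. Named regions were the 12 with the highest lowest-WT −log10 q, the 10 highest at gene ends, those at genes with 2 or more, those at listed genes, the 5 lowest, and the 5 highest with 1 CBP call or with 3 WT calls. Alternatives were a stricter q, 50% coverage, equal list lengths, 100 bp merging, other link distances, other height scales, the replicate block, and each library left out. DNA sequence was not used here, so no motif was searched. Python 3.11.15, numpy 2.4.6, pandas 2.3.3 and scipy 1.17.1 were used.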

Additional observations from a re-analysis of the deposited data

Results flagged for a closer look

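Outside chromosomes 1 to 18 and X, 1716 merged regions lay on 108 other sequences of the lists. Of these, 6 (0.35%) met the same rule of a call in every WT and no CBP library, and 1 met the mirror-image rule. These sequences were left out of the rule, and the 6 regions were not examined further.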

How the results depend on the processing

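The count of 403 WT-only regions was 359 with peaks under a −log10 q of 5 dropped, 467 with 50% coverage and 404 with 100 bp merging, and 659 with equal list lengths; 126, 194, 402 and 113 of the 403 were found again in the order 359, 467, 404, 659. Leaving out 1 library in turn, which can only raise the count, gave 496 to 910. The mirror-image count of 357 was 231 with the stricter q and 429 with equal list lengths. The share at gene ends of 5.46% was 15.9% within 5 kb, 6.96% at the stricter q and 4.55% with equal list lengths. The 262 linked genes became 106 within 10 kb, 22 within 1 kb and 706 where a region inside a gene or within 50 kb of either end counted, since that definition lets a region count for several genes. The 10 regions at listed genes became 2 within 10 kb and 18 by the same wider definition.

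The WT difference in height of 1.1 (60 h minus 0 h) was 0.237 in fold units. It was 0.107 with heights over the median of regions called in every library (chosen after the data were seen). Without single libraries it was 0.806 to 1.4. Both 60 h medians were above both 0 h medians, so leaving out a library or using the replicate number could not turn the sign of the difference. With the replicate number as a replicate block it was 1.1 (0.893 and 1.31 within numbers) and no test was drawn from it; the labels do not say that a shared number pairs libraries. Total reads are unknown, so a missing call cannot be given a limit in reads.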
